A study of Mus musculus with 6 samples.

Results

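Heat shock proteins and cytosolic chaperones form a set of 40 genes listed by symbol, with earlier results of these data known, among the 55487 genes counted in cultured mouse microglia. The set held the heat shock factor Hsf1, 14 stress-inducible targets of HSF1, 12 genes of the constitutive HSP70 and HSP90 machinery, 7 subunits of the TRiC chaperonin, 5 mitochondrial chaperones and the microsomal HSP70 Hspa13. All 40 symbols matched 1 gene each. The question put to these genes was whether Cre- and Cre+ cultures differed in chaperone transcripts, and whether inducible HSF1 targets behaved differently from constitutive chaperones.

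The study isolated primary cortical microglia from CAG::CreERT2; Nr1d1fl/fl pups aged P1-3, with 3 Cre- cultures as control and 3 Cre+ cultures as REV-ERBα KO. Floxed Nr1d1 was present in both groups, and both received 4-OHT (4-hydroxy-tamoxifen) at 1.5 μM, for 2 days by the labels, whereas the study's methods give a shorter exposure for this line. The CAG promoter is active in most cell types, so Cre was not restricted to microglia, and the effect of active Cre itself and that of losing Nr1d1 cannot be told apart, since no Cre+ culture without floxed Nr1d1 was analysed here. Microglia were shaken off mixed glia kept in GM-CSF. The labels number the cultures of a group but do not say whether they came from separate pups, so p-values measure the spread between these samples, which may be technical.

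Libraries held 87545868 to 110909129 counts. Nr1d1 stood at 2.35, 1.20 and 1.64 CPM (a gene's reads scaled to a common library size, with TMM factors) in the Cre- cultures and at 1.00, 0.945 and 1.08 CPM in the Cre+ cultures (log2 fold change -0.77, SE 0.25, edgeR adjusted p = 0.094). The 12 microglial markers summed to 9884-10340 CPM in Cre- and 9744-10060 CPM in Cre+ cultures, and 1 of the 11 tested, Itgam, was called. Summed markers were 45.2-49.3 against 43.0-49.0 CPM for 10 astrocyte genes, 108-122 against 104-114 CPM for 10 oligodendrocyte genes and 46.8-51.9 against 47.2-51.6 CPM for 10 endothelial genes, where Flt1 was called. The 10 neuronal markers (3.52-4.36 against 2.54-2.66 CPM) and the 10 markers of fibroblasts and mural cells (2.02-2.92 against 1.04-1.32 CPM) summed lower in every Cre+ culture. No marker was at 0 in all libraries, Olig2 was at or under 3 counts in each, and the part of other cell types in the chaperone results was not tested.

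Chaperones bind unfolded or partly folded proteins and help them reach or regain their shape. When misfolded proteins accumulate, HSF1 is released from the chaperones that hold it, forms a trimer and binds heat shock elements, which are arrays of GAA and TTC half-sites, upstream of genes such as Hspa1a, Dnajb1 and Bag3. Constitutive chaperones such as Hspa8 and Hsp90ab1 work in unstressed cells, TRiC folds actin and tubulin in the cytosol, and HSP60 with its lid HSP10 folds proteins in the mitochondrial matrix. Tau, the protein studied in the wider project, is handled in cells by several of these proteins, among them HSC70, HSP90 and the ubiquitin ligase CHIP, the product of Stub1.

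Stretches that match the half-site pattern of a heat shock element are shown for the textbook heat-inducible pair Hspa1a and Hspa1b. They are also shown for the genes called in these data with the partner of one of them. Binding of HSF1 to these stretches was not measured. Half-sites are in capitals, and each stretch lies upstream of the RefSeq start site in build GRCm38.p6. The match upstream of Hspd1 and that upstream of Hspe1 are 1 stretch read on opposite strands, because both genes start from a shared promoter.
Hspa1a, chr17:34972242-34972271, minus strand: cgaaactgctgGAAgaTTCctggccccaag
Hspa1b, chr17:34959324-34959353, minus strand: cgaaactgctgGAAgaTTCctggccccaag
Hspd1, chr1:55088053-55088082, minus strand: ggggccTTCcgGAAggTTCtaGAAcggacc
Hspe1, chr1:55088053-55088082, plus strand: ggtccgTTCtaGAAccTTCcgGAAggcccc
Cct5, chr15:31601862-31601891, minus strand: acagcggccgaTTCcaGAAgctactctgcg
Stub1, chr17:25833024-25833053, minus strand: agagcgcggcgGAAgcTTCtcagagctaag

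In the GENCODE M21 annotation, the stretches at Hspa1a and Hspa1b lie outside any gene. The stretch between Hspd1 and Hspe1 falls in an untranslated region of an Hspd1 transcript that starts farther upstream, that at Cct5 falls in an exon of its divergent neighbour Fam173b, and that at Stub1 falls in an untranslated region of a Stub1 transcript that starts farther upstream and in an intron of Gm26694. The Hspa1a and Hspa1b stretches are the same, and 247 of the 250 bases upstream of these genes are shared.

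The motif searched was a pair of facing half-sites, GAANNTTC or TTCNNGAA. Each reads the same on both strands, and overlapping matches were counted. Of the 40 genes, 32 had a promoter window of 300 bases (250 upstream of the start site), and 16 of these (50%) held a pair, against 4587 of 27025 genes (17%) with a window. At least 3 half-sites in a row were found in 5 members (15.6%), namely Hsph1, Chordc1, Dnajb6, Hspd1 and Hspe1, against 179 genes (0.662%). By role, a pair was present in 8 of 12 inducible targets (66.7%), 4 of 10 constitutive genes (40%), 2 of 6 TRiC genes (33.3%) and 2 of 4 mitochondrial genes (50%). The windows of Dnajb1 held no pair, and the pair of Bag3 lay past the start site and not upstream of it. Hsf1, Cryab, Hsp90aa1, Hspa8, Hsp90ab1, Cct4, Hspa9 and Hspa13 had no window. Among members tested, the median log2 fold change was 0.04 in the 13 with a pair and 0.07 in the 16 without one. Of those with a pair 3 were called, 2 higher and 1 lower, and of those without one 0, against 5.07% of all genes tested. Whether a pair goes with a call was not tested. A match in such a window is a description of the letters and not a measured binding site.

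Chaperone transcripts were close in both groups of cultures. Of the 37 members tested, 2 were called higher in Cre+ cultures, the HSP60 gene Hspd1 and the TRiC subunit Cct5, each by about 0.2 on the log2 scale, and 1 was called lower, Stub1. That is 8.11% of the members tested, against 5.07% of the 11429 genes tested, or 2.50% called higher and 2.56% called lower. Called here means an adjusted p of 0.05 or less in edgeR's quasi-likelihood test. With voomWithQualityWeights in limma, the kind of test the study's methods use, the same 3 members were called. The share of all genes that this test called was not computed. Without a filter on low counts the split was 6 higher and 1 lower. In that setting the median of the genes in the filtered test moved up by 0.078, and the share of all genes called was not computed. Hspa1a, Hspa1b and Hspb1 were too low to test. In such bulk libraries, fewer cells that hold a transcript and less of it per cell cannot be told apart.

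Most differences were small, and most had a small SE, with larger ones for Cryab (0.23) and Dnajb2 (0.17). These SE measure the spread between these samples, which may be technical. The median log2 fold change was 0.05 over the members tested and 0.00 over all genes tested, and the median size was 0.11 in both, while the median SE was 0.056 for members and 0.10 for all genes. In 33 of the 37 the fold change was under 0.2 in size, and in 30 the 95% interval lay within 0.3 of zero. Members drew many reads, with a median of 66.3 CPM against 13.9 CPM, and 16 of them exceeded 100 CPM in every library. Their median variation within a group was 4.98%, against 8.11% for all genes tested.

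More members than called stood apart without overlap between the groups. In 19 of 37 (51.4%; 13 above and 6 below) the values of all 3 Cre+ cultures lay on 1 side of those of all Cre- cultures, against 24.0% of all genes tested. An unadjusted p of 0.05 or less was reached by 16 of 37 (43.2%; 12 higher and 4 lower), against 19.1% of all genes. Summed over the 40 genes, the level was 5734, 5825 and 5779 CPM in Cre- and 6073, 6128 and 6094 CPM in Cre+ cultures, a sum in which Hspa8 and Hsp90ab1 weigh most. The plot of levels shows each gene in each culture.

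**Figure D1:**
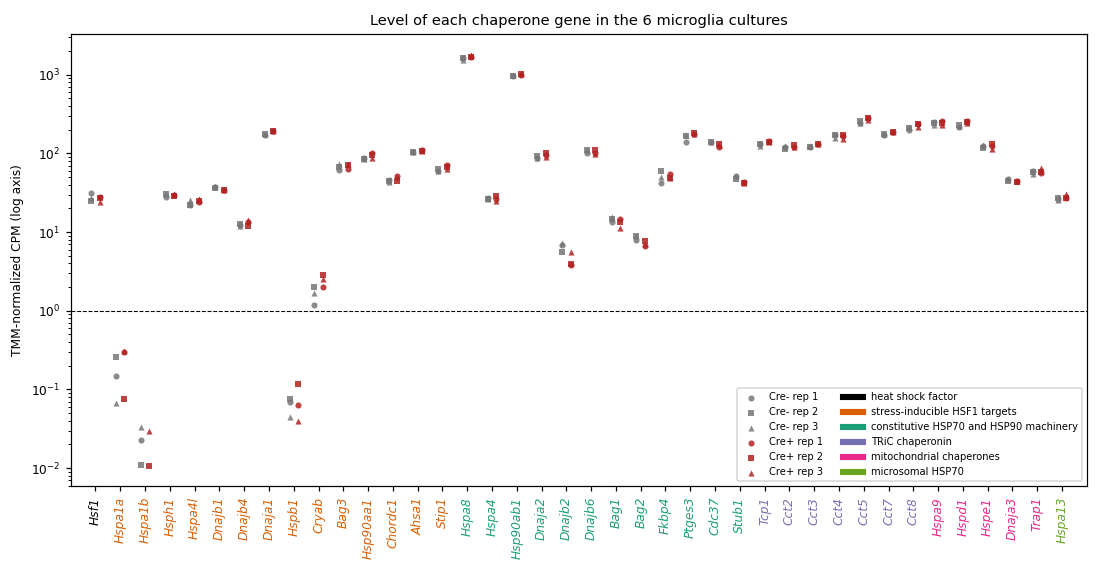
Level of each of the 40 chaperone genes in TMM-normalized CPM (log axis), grouped by role (colour of the gene name), with Cre- cultures in grey, Cre+ cultures in red and symbols for replicates. Hspa1a, Hspa1b and Hspb1 lie below the dashed line at 1 CPM while Hspa8 and Hsp90ab1 lie highest, and the Hspa1b value of 0 in Cre+ replicate 1 cannot be drawn on a log axis.

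Hsf1, which encodes the factor that drives the inducible genes, was at 31.1, 24.9 and 27.4 CPM in Cre- and 27.5, 26.8 and 24.2 CPM in Cre+ cultures. The groups overlapped (log2 fold change -0.08, SE 0.09, edgeR adjusted p = 0.66). HSF1 is regulated mainly as a protein, so its transcript level does not measure its activity.

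Among the genes listed as stress-inducible targets of HSF1, 0 were called by edgeR, by DESeq2 or by voomWithQualityWeights. This count depends on the lists. Hspd1, which was called higher, was listed with the mitochondrial chaperones, although its window held at least 3 half-sites in a row. Of the 14 genes, 11 were tested, of which 10 had a positive and 1 a negative log2 fold change, with a median of 0.10 and a range from -0.13 to 0.61. An unadjusted p of 0.05 or less was reached by 4, all higher (Dnaja1, Cryab, Hsp90aa1 and Stip1), and 5 were apart above and 1 below. Over all genes tested, 19.1% reached such a p, 24.0% were apart and edgeR called 5.07%. Without a filter on low counts, where the median of the genes in the filtered test moved up by 0.078, 1 was called, Dnaja1. The share of all genes called in that setting was not computed.

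The 2 genes of the major heat-inducible HSP70 were almost silent. Hspa1a (chr17:34969190-34972156) had 13, 24 and 6 reads in Cre- and 33, 7 and 31 reads in Cre+ cultures, with overlap between the groups. Hspa1b (chr17:34956436-34959238) had 2, 1 and 3 reads against 0, 1 and 3 reads, at or under 3 counts in every library, so no fold is given. The 2 transcripts are the same at 99.23% of 2201 aligned bases, so that reads can be split between them or dropped, and their sum gave a log2 fold change of 0.49 (SE 0.62, adjusted p = 0.69 in the unfiltered test). Per kb of exon the mean Cre- level was 0.0535 CPM for Hspa1a and 370 CPM for Hspa8, the constitutive HSP70 of the same family.

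The small heat shock proteins hold unfolded proteins without ATP. Hspb1 had 6, 7 and 4 reads in Cre- and 7, 11 and 4 reads in Cre+ cultures, and it shares 99.77% of 441 bases with the pseudogene Hsp25-ps1, which had 92.4% as many reads. Cryab, αB-crystallin, was at 1.18, 2.00 and 1.69 CPM in Cre- and 2.04, 2.89 and 2.53 CPM in Cre+ cultures. Each Cre+ culture was above each Cre- culture, but the lowest Cre+ value was next to the highest Cre- value, and the difference was not called (log2 fold change 0.61, SE 0.23, adjusted p = 0.15). Cryab had the fewest reads of the members tested and the largest fold change among them.

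Of the inducible J-domain proteins, which deliver clients to HSP70, edgeR called 0 of 3, and 1 had an unadjusted p under 0.05, Dnaja1. Dnajb1, the partner induced along with Hspa1a under heat, was at 36.9, 36.8 and 38.5 CPM in Cre- and 33.8, 34.3 and 34.7 CPM in Cre+ cultures, apart below but not called (log2 fold change -0.13, SE 0.06, adjusted p = 0.29). Dnaja1 was at 171, 179 and 179 CPM in Cre- and 195, 192 and 193 CPM in Cre+ cultures, apart above and not called (log2 fold change 0.13, SE 0.04, adjusted p = 0.095). Dnajb4 was at 12.23, 12.84 and 12.03 CPM against 13.40, 12.09 and 14.28 CPM, with overlap. The difference between Dnajb1 and Dnaja1 was not tested, and with the GC and length trend removed Dnaja1 was at 0.08 (adjusted p = 0.39). Dnaja1 overlaps Smu1 on the other strand by 608 bases, and as no strand setting is given in the sources used here, reads in that stretch cannot be assigned to 1 of them.

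The HSP110 genes, which exchange the nucleotide of HSP70, overlapped between the groups. Hsph1, also induced by heat, was at 27.7, 30.6 and 30.1 CPM in Cre- and 29.4, 28.7 and 30.3 CPM in Cre+ cultures (log2 fold change 0.00, SE 0.07, adjusted p = 1.00). Hspa4l was at 22.3, 22.2 and 25.3 CPM against 24.1, 24.8 and 26.2 CPM (log2 fold change 0.10, 95% interval -0.06 to 0.27, adjusted p = 0.52). Bag3, the co-chaperone that links HSP70 to selective autophagy, was at 62.3, 66.9 and 73.6 CPM in Cre- and 63.8, 70.3 and 73.8 CPM in Cre+ cultures, again with overlap (log2 fold change 0.04, SE 0.07, adjusted p = 0.85). For Hsph1 the 95% interval of the log2 fold change ran from -0.15 to 0.15, and for Bag3 from -0.11 to 0.18.

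The inducible HSP90 and its helpers had positive log2 fold changes without a call. Hsp90aa1, the inducible cytosolic HSP90, was at 86.9, 85.8 and 85.6 CPM in Cre- and 100.1, 95.5 and 88.0 CPM in Cre+ cultures (log2 fold change 0.13, SE 0.06, adjusted p = 0.19). Stip1, which joins HSP70 to HSP90, was at 59.9, 63.1 and 60.3 CPM against 70.6, 66.5 and 64.2 CPM (log2 fold change 0.14, SE 0.06, adjusted p = 0.20). Both were apart above, with Cre+ replicate 3 nearest to the controls. Stip1 shares a stretch of sequence with Cfap20, which had 51.6% as many reads, so its count is less certain. Ahsa1, which speeds the ATPase of HSP90, was at 105.0, 104.4 and 104.4 CPM against 110.8, 105.8 and 106.9 CPM, apart above by a narrow margin (log2 fold change 0.04, adjusted p = 0.67). Chordc1, an HSP90 co-chaperone, was at 45.9, 44.3 and 43.1 CPM against 51.8, 44.9 and 49.5 CPM, with overlap.

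**Figure D2:**
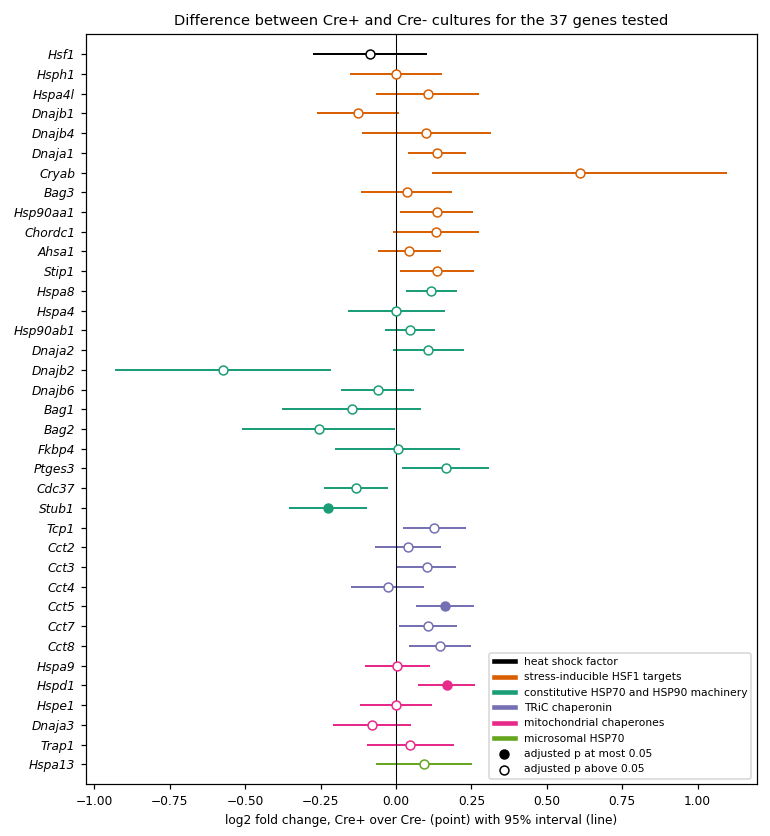
Log2 fold change of Cre+ over Cre- cultures for the 37 members tested (points) with 95% intervals (lines), coloured by role, filled where the edgeR adjusted p was at most 0.05. Only Hspd1, Cct5 and Stub1 are filled, most points lie within 0.2 of zero, and Cryab and Dnajb2, which with Bag2 had the fewest reads of the members tested, lie farthest out.

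The constitutive HSP70 and HSP90 machinery was split evenly, with 6 members of positive and 6 of negative log2 fold change and a median of -0.03. Per kb of exon, Hspa8 and Hsp90ab1 had the highest levels of all members, with means of 370 and 327 CPM in Cre- and 401 and 338 CPM in Cre+ cultures. Hspa8, which also carries out chaperone-mediated autophagy and strips clathrin from vesicles, was at 1612, 1610 and 1547 CPM in Cre- and 1684, 1705 and 1782 CPM in Cre+ cultures. The groups were apart, by 8.45%, and the difference was not called (log2 fold change 0.12, SE 0.04, adjusted p = 0.095). Hsp90ab1, the constitutive cytosolic HSP90, was at 963, 973 and 1004 CPM against 991, 1026 and 1021 CPM, with overlap (log2 fold change 0.05, SE 0.04, adjusted p = 0.55). Processed pseudogenes with sequence close to Hspa8 had in sum 6.16% as many reads as Hspa8 itself.

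Stub1 (chr17:25830505-25833404), whose product CHIP is the ubiquitin ligase that marks clients of HSP70 and HSP90 for degradation, was called lower in Cre+ cultures. It was at 51.4, 47.9 and 51.0 CPM in Cre- and 44.0, 42.2 and 42.6 CPM in Cre+ cultures. All Cre+ values lay below all Cre- values, by 14.4% in the fitted means (log2 fold change -0.22, SE 0.06, edgeR adjusted p = 0.039). The call was absent in 5 of the 6 fits that left out 1 library each, all but that without Cre- replicate 2, with adjusted p from 0.048 to 0.12 over the 6 and log2 fold changes from -0.26 to -0.21. Stub1 has the highest GC content of the members tested, 60.8% in its longest transcript. With the trend of each library with GC content and length removed, an alternative chosen after seeing the data, the log2 fold change was -0.07 (adjusted p = 0.61). Stub1 also overlaps Jmjd8 over 506 bases, and with the reads of both genes summed the difference was -0.19 (adjusted p = 0.088).

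Dnajb2, a J-domain protein that binds ubiquitinated clients and passes them to the proteasome, had the largest negative fold change of the members. It was at 6.91, 5.62 and 7.17 CPM in Cre- and 3.77, 3.90 and 5.58 CPM in Cre+ cultures. The groups were apart only barely, since Cre+ replicate 3 lay next to Cre- replicate 2. The log2 fold change was -0.57 (SE 0.17, adjusted p = 0.063), which was not called. Its adjusted p ranged from 0.019 to 0.20 over the alternatives, and 6 of them called it. These were DESeq2's Wald test (adjusted p = 0.019), no low-count filter (0.024), a filter above 5 CPM (0.039), the replicate block (0.043), and the fits without Cre- replicate 2 (0.049) and without Cre+ replicate 3 (0.021, log2 fold change -0.78).

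The other 9 constitutive members had log2 fold changes from -0.26 for Bag2, which inhibits CHIP, to 0.16 for Ptges3, the HSP90 co-chaperone p23. Bag2 (8.53 ± 0.57 against 7.14 ± 0.51 CPM, SD, n = 3) and Cdc37, which brings kinases to HSP90 (139.6 ± 1.7 against 127.3 ± 5.4 CPM), were apart below, with adjusted p of 0.25 and 0.14. Ptges3 (158 ± 18 against 178 ± 2.0 CPM) was apart above, with an adjusted p of 0.18. Hsp90ab1, Hspa4, Dnaja2, Dnajb6, Bag1 and Fkbp4 overlapped. These values were outside the rule for named genes and were picked after they were seen. Fkbp4 shares a repeat with 36 other genes, so that its count is uncertain.

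The plot of single genes sets the called members beside their partners.

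**Figure D3:**
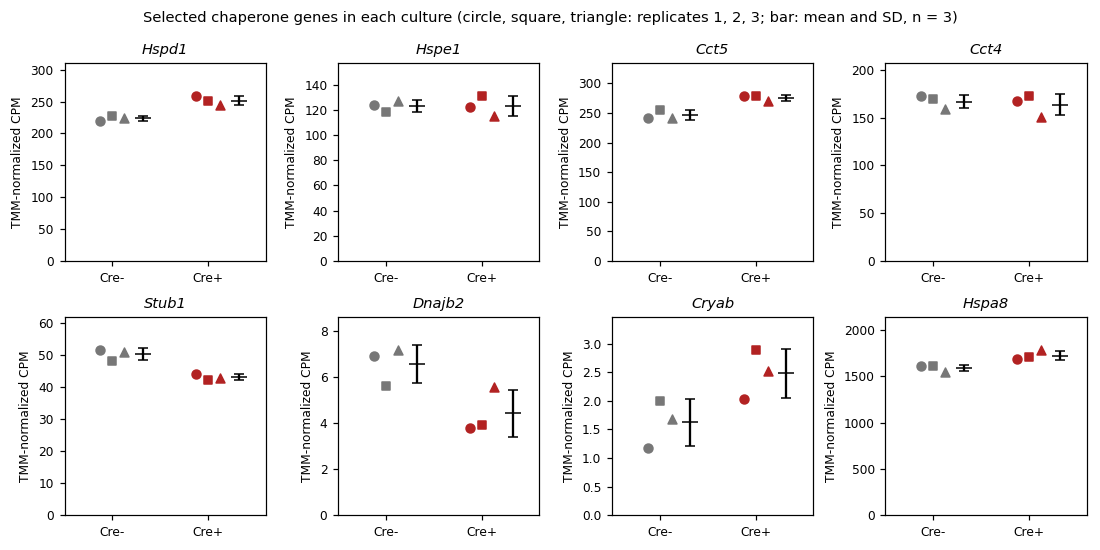
TMM-normalized CPM of 8 members in each culture, with axes from 0, Cre- in grey, Cre+ in red, 1 symbol per replicate number, and the mean and SD (n = 3) in black. Hspd1, Cct5, Cryab and Hspa8 are higher in every Cre+ culture, Stub1 and Dnajb2 are lower in every Cre+ culture, and Hspe1 and Cct4 overlap.

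The TRiC chaperonin, a double ring of related subunits, had a narrow spread. Of the 7 subunits in the set, 6 had a positive log2 fold change, and the median was 0.11. Cct6a, a further subunit of the ring, was outside the set and was listed with the TRiC partners. It was at 116.7, 116.3 and 115.9 CPM in Cre- and 121.6, 126.7 and 120.5 CPM in Cre+ cultures. It was apart above and not called (log2 fold change 0.08, SE 0.05, edgeR adjusted p = 0.38). An unadjusted p of 0.05 or less was reached by 5 of the 7 in the set, all higher and all apart above (Tcp1, Cct3, Cct5, Cct7 and Cct8). Over all genes tested, 19.1% reached such a p and 24.0% were apart. Cct5 (chr15:31590800-31601804) was the 1 subunit called, at 242, 256 and 242 CPM in Cre- and 279, 279 and 270 CPM in Cre+ cultures. All Cre+ values were above the highest control (log2 fold change 0.16, SE 0.04, edgeR adjusted p = 0.043). The call was lost in each of the 6 fits that left out 1 library, at adjusted p of 0.055 to 0.14, with log2 fold changes from 0.14 to 0.19. With the GC and length trend removed it was 0.16 (adjusted p = 0.037).

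Cct8 had the next smallest p of the subunits, at 198, 210 and 214 CPM in Cre- and 235, 233 and 220 CPM in Cre+ cultures (log2 fold change 0.15, SE 0.05, adjusted p = 0.095). Cct4 overlapped, at 172, 169 and 159 CPM against 167, 173 and 151 CPM (log2 fold change -0.03, SE 0.06, adjusted p = 0.85), as did Cct2 with 0.04. The ratio of Cct5 to Cct4 counts was 1.40, 1.51 and 1.52 in Cre- and 1.66, 1.61 and 1.79 in Cre+ cultures. The pair was picked after its values were seen, so the ratio is a description with no test. Tcp1 shares a stretch of sequence with Acat2, which had 23.0% as many reads.

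In the mitochondrial group, 3 members had a positive and 2 a negative log2 fold change, with a median of 0.00. Hspd1 (chr1:55077835-55088243), which encodes the HSP60 chamber, was called higher. It was at 219, 227 and 224 CPM in Cre- and 259, 250 and 245 CPM in Cre+ cultures, a clear gap of every Cre+ over every Cre- culture (log2 fold change 0.17, SE 0.04, 12.3% higher, edgeR adjusted p = 0.036). As for Cct5, none of the 6 fits that left out 1 library called it, at adjusted p of 0.051 to 0.13, with log2 fold changes from 0.15 to 0.19. The pseudogene Hspd1-ps3 had 3.69% as many reads, and the result stayed at 0.17 with the reads of similar genes added (adjusted p = 0.036).

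Hspe1 (chr1:55088132-55091307), the HSP10 lid transcribed from the same promoter as Hspd1 in the opposite direction, was at 123.7, 118.0 and 127.3 CPM in Cre- and 122.6, 130.9 and 115.2 CPM in Cre+ cultures. The groups overlapped, and the 95% interval of the log2 fold change ran from -0.12 to 0.12 (estimate 0.00, adjusted p = 1.00). Of the pair that shares 1 stretch of half-sites, Hspd1 was called and Hspe1 was not, but the ratio of their counts overlapped between the groups. The ratio of Hspd1 to Hspe1 counts was 1.77, 1.93 and 1.76 in Cre- and 2.11, 1.91 and 2.13 in Cre+ cultures. This pair, too, was picked after its values were seen and was not tested. The loci of Hspd1 and Hspe1 overlap at their starts on opposite strands. As no strand setting is given, reads in that stretch may not be assignable to 1 of them.

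Hspa9, the mitochondrial HSP70 that draws proteins through the inner membrane, was at 248, 246 and 233 CPM in Cre- and 257, 242 and 230 CPM in Cre+ cultures, with overlap (log2 fold change 0.00, SE 0.05, adjusted p = 0.98). Dnaja3, its J-domain partner, and Trap1, the mitochondrial HSP90, had log2 fold changes of -0.08 and 0.05 without a call. Hspa13, a microsomal HSP70, had 0.09 (adjusted p = 0.55) and overlapped.

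The values of each culture against the control mean show how far the roles differed. The median log2 ratio of the inducible targets was 0.12, 0.06 and 0.13 in the Cre+ cultures, that of TRiC was 0.10, 0.12 and 0.09, and that of the constitutive machinery was -0.01, 0.00 and -0.10. The medians of the inducible targets and of TRiC were thus positive in all 3 Cre+ cultures, with TRiC the higher of them in replicate 2 and the lower in replicates 1 and 3. The constitutive machinery had its lowest median in Cre+ replicate 3. So did the mitochondrial chaperones, at -0.004, -0.002 and -0.063 in the Cre+ cultures. No test was made between the roles.

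**Figure D4:**
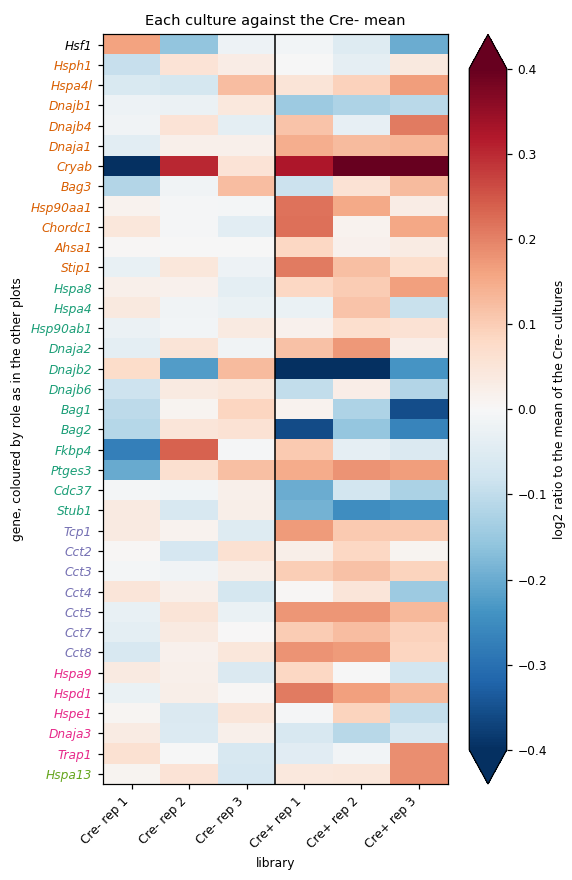
Log2 ratio of each culture to the mean of the 3 Cre- cultures for the 37 members tested, with gene names coloured by role and the colour scale ending at 0.4 in both directions. Most rows stay pale, Hspd1, Cct5, Dnaja1 and Stip1 are red in all 3 Cre+ columns, and Stub1, Dnajb2, Bag2 and Cdc37 are blue in them.

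GC content moved with the fold changes. Over the 37 members, Spearman's rho of log2 fold change with GC content was -0.52, and over all genes tested it was -0.30. Members share the same 6 libraries, so these are descriptions. The median GC content was 47.3% in members and 49.3% in all genes, and by role it was 45.1% in TRiC, 46.8% in mitochondrial chaperones, 49.4% in inducible targets and 50.8% in the constitutive machinery. With the trend removed, the TRiC median was 0.08 in place of 0.11, Dnaja1 was 0.08 in place of 0.13, and Hspd1 and Cct5 stayed called.

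**Figure D5:**
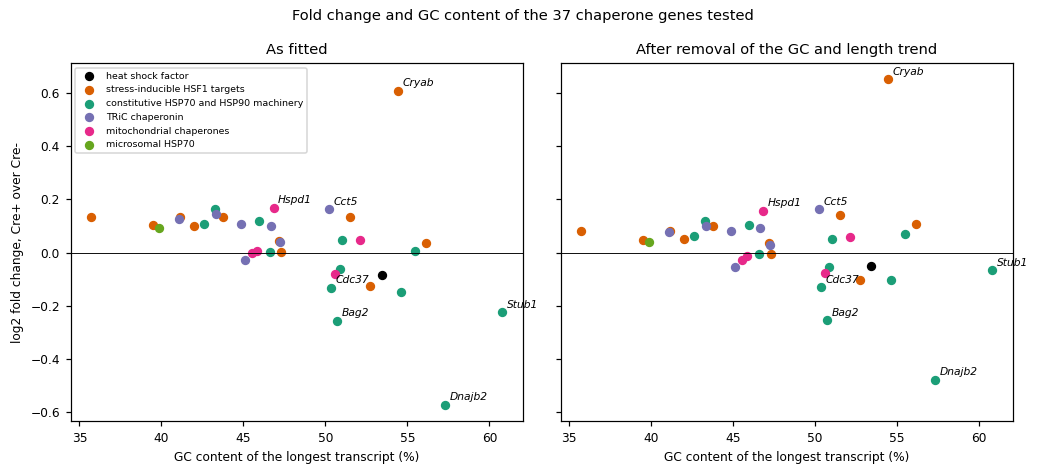
Log2 fold change of Cre+ over Cre- cultures against the GC content of the longest transcript for the 37 members tested, as fitted (left) and with each library's trend with GC content and length removed (right), coloured by role. At left the points slope downward (rho -0.52) with Cryab far above zero and Dnajb2 far below at high GC, and at right Stub1 lies at -0.07.

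Chaperones and stress genes outside the set were taken from 9 lists of 98 genes in all, of which 87 were tested. In edgeR 0 were called higher and 4 lower (Fkbp8, Hmox1, Mt1 and Sqstm1), against 2.50% higher and 2.56% lower over all genes tested. The same 4 were called by voomWithQualityWeights, and DESeq2 called 1 higher (Dnajc18) and 6 lower. For these 2 tests the share of all genes called was not computed. Without a filter on low counts the balance was the other way, with 5 called higher (Canx, Dnajc18, Dnajc7, Hspa5 and St13) and 2 lower (Hmox1 and Mt1). In that setting the median of the genes in the filtered test moved up by 0.078. The part of this shift in those calls was not tested, and the share of all genes called was not computed. The median log2 fold change was -0.02, and the unadjusted p was 0.05 or less for 7 higher and 10 lower, against 19.1% of all genes tested. EdgeR called 0 genes among 5 other heat shock factors and HSF regulators, 3 other HSP70 and HSP110 genes and 2 other small heat shock proteins tested. It also called 0 among 15 other J-domain proteins and 9 other mitochondrial chaperones and proteases tested. The same held for 12 ER chaperones and for 11 TRiC partners and prefoldins, among them the subunit Cct6a. In these lists DESeq2 called Dnajc18 among J-domain proteins and Sdf2l1 among ER chaperones. In the ER list 5 log2 fold changes were positive and 7 negative, with a median of -0.03. Of these genes 2 were apart above and 2 below, against 24.0% of all genes tested. The ER genes with the smallest p in each direction, picked after their values were seen, had unlike signs. Hspa5, the ER HSP70 BiP, was at 743, 805 and 777 CPM in Cre- and 881, 818 and 856 CPM in Cre+ cultures, apart above and not called (log2 fold change 0.14, SE 0.04, adjusted p = 0.087). Sdf2l1, an ER co-chaperone, was at 135, 143 and 155 CPM against 132, 130 and 119 CPM, apart below and not called (log2 fold change -0.18, SE 0.06, adjusted p = 0.089).

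Of the 10 other stress-inducible genes tested, 3 were called, all lower, against 2.56% of all genes tested called lower. Hmox1, the heme oxygenase induced by oxidants and heme, was at 502, 484 and 511 CPM in Cre- and 392, 392 and 384 CPM in Cre+ cultures (log2 fold change -0.36, SE 0.04, edgeR adjusted p = 6.2e-05). Mt1, a metallothionein that binds zinc, was at 369, 384 and 391 CPM against 312, 312 and 289 CPM (log2 fold change -0.33, SE 0.05, adjusted p = 5.3e-04). Sqstm1, the autophagy receptor p62, was at 145, 144 and 156 CPM against 124, 126 and 117 CPM (log2 fold change -0.28, SE 0.05, adjusted p = 0.0044). All 3 were called in 6 of 6 fits that left out 1 library and after removal of the GC and length trend. Without a filter on low counts Hmox1 and Mt1 were called and Sqstm1 was not (adjusted p = 0.066). All 3 are also known targets of factors other than HSF1, and the remaining 7 genes of that list were not called. Fkbp8, an HSP90 co-chaperone of the outer mitochondrial membrane, was at 153, 169 and 162 CPM against 140.0, 139.0 and 140.7 CPM (log2 fold change -0.21, SE 0.05, adjusted p = 0.022), but was at 0.00 with the GC and length trend removed (adjusted p = 0.99) and called in 1 of the 6 fits that left out 1 library.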

How the data were processed

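RNA from 6 microglia cultures was sequenced after SMARTer Ultra Low amplification. The counts, as deposited, are whole reads per Ensembl gene that the authors made with STAR 2.7.9a and featureCounts 2.0.3 (versions per the submitters' processing notes) on GRCm38, with no strand setting given in the sources used here. The CPM values that the authors deposited are counts over the library total, and the deposited FPKM values are these over gene length. Both were used only to check their unit. Everything reported was computed from the counts. Symbols, loci and ribosomal genes came from GENCODE M21 (39 of 40 members with the same start and end).

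After removal of rRNA and Mt_rRNA genes, a gene was tested if it exceeded 1 CPM in 4 or more libraries. Cre+ was set against Cre- with TMM factors (0.986 to 1.01) and the quasi-likelihood test of edgeR 4.0.16 (R 4.3.3). No covariate was used, and p-values of the 11429 genes were adjusted by Benjamini-Hochberg. The variation between cultures was 10% at the common dispersion. Fold changes are log2, CPM in the text are TMM-normalized, and levels per kb use summed exon length.

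The members and lists were chosen with earlier results of these data known. The named genes are all inducible targets, Hsf1, every called member, the 3 of the rest that are highest in CPM, the 3 with the smallest p, and called genes of other lists. Dnajc20 had no match and Ddit3 matched 2 identifiers, so both were left out. Alternatives were DESeq2 1.42.0 (size factors, Wald test), library totals, limma 3.58.1's voomWithQualityWeights, 2 other filters, ribosomal genes kept, the replicate number as a block, each library left out, summed similar genes (blastn 2.17.0, at least 95% identity over 100 bases) and, added after the data were seen, removal of the GC content and length trend. The code was tested on simulated data. Promoters came from RefSeq.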

Additional observations from a re-analysis of the deposited data

How the results depend on the processing

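The 3 calls depended on the setting. The share of all genes called was computed only for the filtered edgeR test, so the counts in other settings are given without it. For 2 members called higher, DESeq2's size factors gave 1, no low-count filter 6 (Hspa8, Ptges3, Dnaja1 and Cct8 besides Hspd1 and Cct5, with Dnajb2 and not Stub1 lower), the fits that left out a library 0 to 0, and the replicate block 0. For 1 called lower, DESeq2's Wald test and a filter above 5 CPM each gave 2, with Dnajb2 added, removal of the GC content and length trend 0, summed similar genes 0, and the fits that left out a library 0 to 2. The replicate block also called 1 lower, Dnajb2 (-0.59), in place of Stub1 (adjusted p = 0.080). The labels do not say whether same-numbered cultures were paired. Deviations of the same-numbered samples from their group means correlated at 0.014, -0.021 and -0.045, and those of samples with unlike numbers at -0.0343 to 0.0555. With 3 libraries per group, these values do not settle whether cultures were paired. Without a low-count filter, medians were 0.18 for inducible targets, 0.048 for constitutive genes, 0.18 for TRiC and 0.083 for mitochondrial chaperones, where the median of the genes in the filtered test moved by 0.078. TRiC was 0.092 above 5 CPM and 0.082 with the GC trend removed. Leaving out a library gave 0.072 to 0.13 (inducible), -0.11 to 0.00064 (constitutive), 0.093 to 0.12 (TRiC) and 0.00080 to 0.042 (mitochondrial). The cause was not tested. Of 568 values of single genes, 496 kept direction and side of the threshold, 24 lost and 10 gained a call, and 38 changed sign, in 9 genes whose reported size was at most 0.061. These were, with DESeq2's size factors, Hsph1 (-0.0033), Hspa4 (-0.0026) and Hspa9 (-3.7e-05), with its Wald test the same genes (-0.0034, -0.0027 and -2.4e-05), with voomWithQualityWeights Hsph1 (-0.0017) and Hspe1 (0.0023), and with library totals Hspe1 (0.0043). Above 5 CPM they were Hsph1 (-0.013), Hspa4 (-0.013), Fkbp4 (-0.0087) and Hspa9 (-0.010), with the GC trend removed Hsph1 (-0.0048), Hspa4 (-0.0067) and Hspa9 (-0.012), without a low-count filter Dnajb6 (0.016), Cct4 (0.051) and Hspe1 (0.078), with summed similar genes Fkbp4 (-0.0097), and with the replicate block Hspa4 (-0.00039). Leaving out a library gave Hsph1 -0.046 to 0.029, Bag3 -0.023 to 0.098, Hspa4 -0.056 to 0.044, Fkbp4 -0.12 to 0.14, Cct4 -0.067 to 0.027, Hspa9 -0.038 to 0.042, Hspe1 -0.048 to 0.044 and Trap1 -0.027 to 0.091. Hspa1a, Hspa1b and Hspb1 had too few reads for the filtered test and overlapped between the groups. Their variation within a group was 59.9%, 74.3% and 44.8%, so a small difference in them could have been missed.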
